A study of Mus musculus with 2 samples.

Results

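The neuronal and glial identity genes are 42 mouse genes whose expression marks the cell types of the brain, and they were examined in a Cleavage Under Targets and Tagmentation (Cut&Tag) experiment on the hippocampus. Each of the 42 symbols was found once among 49943 RefSeq genes of the mouse assembly GRCm38, and all 42 were among its 21887 protein-coding genes. They comprise 14 neuron genes, 9 astrocyte genes, 10 genes of the oligodendrocyte lineage, 6 microglia genes, and 3 endothelial genes. One library was made with an antibody to Smad4 and 1 with control IgG, both from nuclei of mouse hippocampus. In Cut&Tag the bound antibody directs the Tn5 transposase to cut and tag the DNA beside it. The labels give the tissue. The study used male APP/PS1 mice, a transgenic model of Alzheimer's disease, and wild-type littermates of the same age. Viruses were injected into the hippocampus of some. Whether the 2 libraries came from these mice, and from which genotype, age, or treatment, is not given in the sources used here. One list of 5326 peaks was analysed. The IgG library's record carries it, while its name states no antibody, so its peaks are assigned to neither antibody and nothing here compares Smad4 with IgG. With 1 list there are no replicates, and nothing here measures how animals vary. A gene was counted as having a peak if a peak overlapped the gene or came within 3 kb of either of its ends. A list of peaks does not measure expression, so it cannot show whether the cell types named by these genes were present in the tissue.

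Cell identity in the brain is held by transcription factors that switch on the genes of 1 cell type and by the products those genes encode. Neurons are marked by the splicing factor NeuN, by bHLH factors of the Neurod family, and by the enzymes and transporters of glutamate or GABA signaling, whereas glia are marked by glutamate transporters and water channels (astrocytes), myelin proteins (oligodendrocytes), and receptors for chemokines, nucleotides, and growth factors (microglia). Smad4 is the shared partner of the receptor-activated Smads, which carry TGF-β and BMP signals into the nucleus, and BMP signals are known to favor astrocytes over neurons and oligodendrocytes during the development of neural stem cells.

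Of the 42 identity genes, 5 had a peak (11.9%, 95% exact binomial interval 3.98% to 25.6%) and 37 had none. The background was close to this, since 2836 of the 21887 protein-coding genes (13%) had a peak by the same rule. The 5 genes were Rbfox3, the gene of the neuronal splicing factor NeuN, Slc1a2, the gene of the astrocytic glutamate transporter GLT-1, Mbp, which encodes myelin basic protein, Pdgfra, the growth factor receptor that marks oligodendrocyte precursors, and Flt1, which encodes a VEGF receptor of endothelial cells. Together they held 6 peaks, and all 6 lay inside the genes. The identity genes with their windows covered 1.94 Mb and held 3.09 peaks per Mb, against 2.92 peaks per Mb for all protein-coding genes. The background share lay inside the exact interval of the identity genes, so with 42 genes the interval does not separate them from the protein-coding genes. The interval treats genes as independent and with the same share, and no test was made.

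The 4 longest identity genes had a peak, and the next 6 in length did not. The identity genes ranged from 1.42 kb (Cldn5) to 422 kb (Rbfox3), with a median of 14.2 kb, and the median of all protein-coding genes was 17.2 kb. When the protein-coding genes were divided into 10 classes of equal number by length, the share with a peak rose from 1.37% in the shortest class to 43.3% in the longest, which begins at 109 kb. The 4 identity genes in the longest class, Rbfox3, Flt1, Slc1a2, and Mbp, all had a peak (exact interval 39.8% to 100%). The 4 in the next class, which begins at 57.1 kb, Bcl11b, Slc1a3, Gad2, and Pecam1, had none, where 23.2% of the protein-coding genes did, and Prox1 (52.8 kb) and Aldh1l1 (48.4 kb) had none either. In the 9 classes below the longest 1 of 38 identity genes had one, Pdgfra (46.9 kb), which is 2.63% (exact interval 0.0666% to 13.8%), and 9.59% of the protein-coding genes in these classes did. Summed over the length class of each member, protein-coding genes of like length gave 5.41 genes with a peak where 5 were found. Taking instead the 200 protein-coding genes nearest in length to each member, the sum was 4.86.

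**Figure D1:**
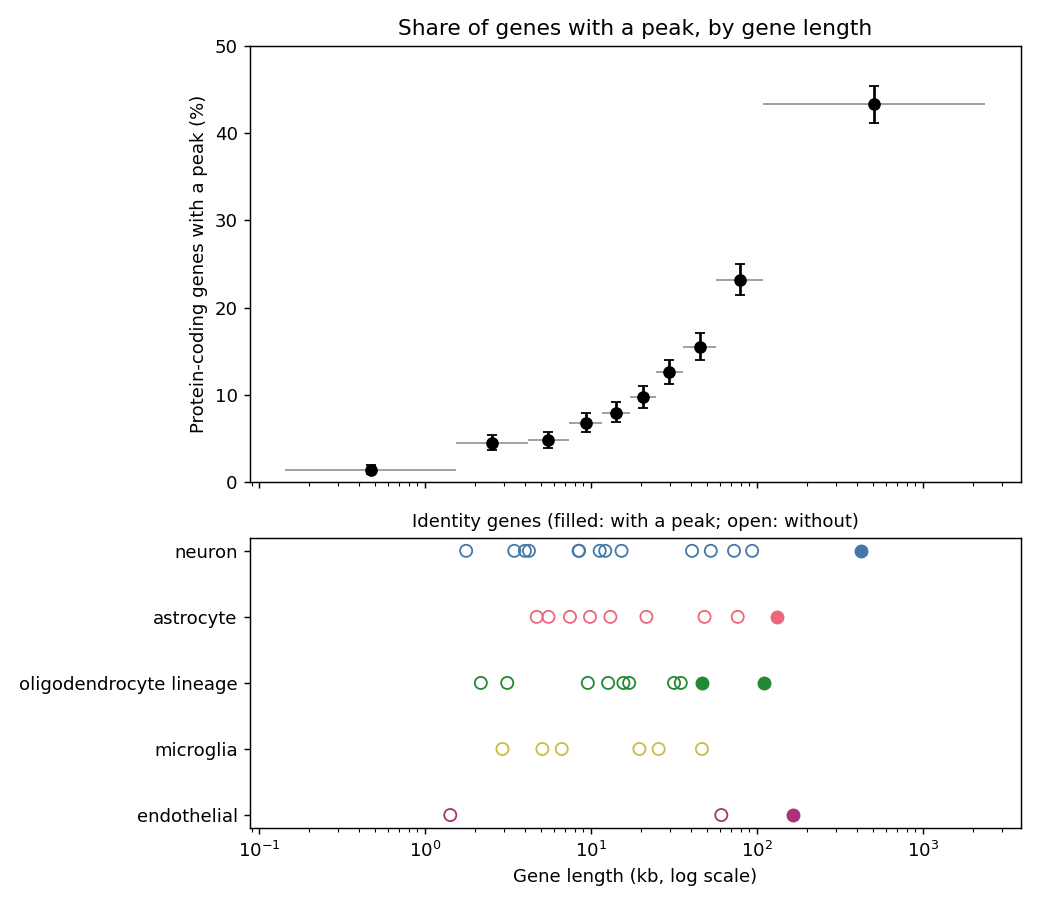
The upper panel shows the percentage of protein-coding genes with a peak (y axis) in 10 classes of gene length (x axis, kb, log scale), where bars are 95% exact binomial intervals and horizontal lines the span of each class. The lower panel places each identity gene at its length, filled where it had a peak, and 4 of the 5 filled genes lie in the longest class.

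Rbfox3, the longest of the identity genes, was the only one with more than 1 peak. It lies on the minus strand of chromosome 11 from 118489760 to 118911597 (GRCm38). Its first peak, from 118524111 to 118524390, had its summit 34491 bp from the 3′ end of the gene, with a fold enrichment of 3.50 over the background and a q-value of 0.0272 as given by the authors' peak caller. The pileup, that is, the number of overlapping fragments at the summit, was 3. The second peak, from 118780319 to 118780692, had a fold enrichment of 4.54, a q-value of 0.000589, and a pileup of 4. Its summit lay 19466 bp upstream of the annotated start at 118761041 and still inside the gene, which extends beyond that start. Of the 200 protein-coding genes nearest to Rbfox3 in length, 55.5% had a peak. The same share was lower for the other 3 genes of the longest class, 33.5% for Mbp, 29.0% for Flt1, and 25.5% for Slc1a2. The share of the whole class was 43.3%.

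Slc1a2 (chromosome 2, 102658239 to 102790784) had a peak from 102723239 to 102723613. The summit lay 16987 bp downstream of the annotated start, with a fold enrichment of 4.38, a q-value of 0.00235, and a pileup of 4. GLT-1 takes up most of the glutamate released at hippocampal synapses. The other glutamate transporter gene of astrocytes, Slc1a3, is 76.7 kb long and had no peak, and its nearest peak was 124 kb away.

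The oligodendrocyte lineage had 2 genes with a peak, at different stages of the lineage. The Pdgfra peak, on chromosome 5 from 75164079 to 75164357, lay 11969 bp downstream of the annotated start. It had a fold enrichment of 4.63, a q-value of 0.000249, and a pileup of 4, and 860 of the 5326 peaks had a lower q-value. This was the lowest q-value among the 6 peaks, and at 46.9 kb Pdgfra was the shortest of the 5 genes. Of the protein-coding genes in its length class, 15.5% had a peak. The Mbp peak, on chromosome 18 from 82481146 to 82481557, lay 6261 bp inside the lower-coordinate end of the gene, with a fold enrichment of 2.88, a q-value of 0.0272, and a pileup of 2. The Flt1 peak had the same 3 values. It lay on chromosome 5 from 147624734 to 147625349, 100969 bp downstream of the annotated start, and at 616 bp it was the widest of the 6. The q-value of 0.0272 was shared by 1844 peaks of the list, so the peaks at Mbp and Flt1 and the first peak at Rbfox3 cannot be ranked among these.

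**Figure D2:**
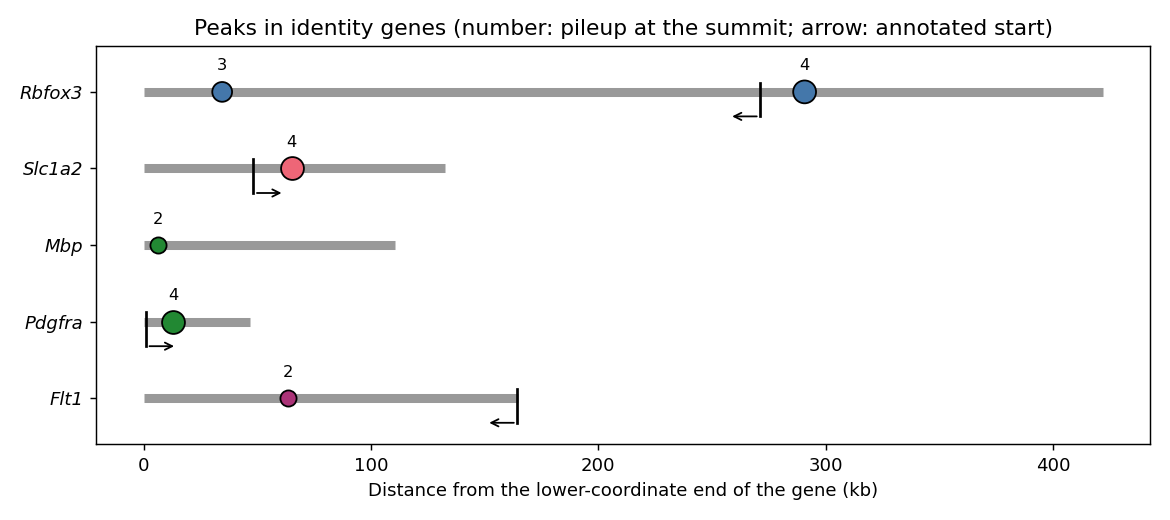
The 6 peaks at identity genes are drawn along each gene (grey bar) by distance in kb from its lower-coordinate end, with the pileup written above each summit and an arrow at the annotated start where the promoter table gives one. None of the summits lies at an arrow, and the nearest, in Pdgfra, is 11969 bp from it.

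The 6 peaks had 2 to 4 overlapping fragments at the summit. Their median fold enrichment was 3.94, against 2.88 for all 5326 peaks and 3.44 for the 3153 peaks in or within 3 kb of a protein-coding gene. The pileup was 2 in 2 of the 6 peaks, 3 in 1, and 4 in 3. It was 2 in 53.4% and at least 4 in 29.4% of all peaks, and 2 in 48.2% and at least 4 in 33.2% of the 3153. With 6 peaks these shares cannot be told apart. The strongest peak at any identity gene thus had a pileup of 4. The highest pileup at a protein-coding gene was 83, but this is the maximum of the far larger set of 3153 peaks. With only q-values of 0.01 or less kept, peaks were left at 3 of the 42 identity genes, Rbfox3, Slc1a2, and Pdgfra, and at 6.32% of the protein-coding genes. A gene without a listed peak may still have had fragments, because the list holds only regions that passed the authors' cutoff.

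By cell class, the counts were too small to order the classes. A peak was found at 1 of 14 neuron genes (7.14%, exact interval 0.181% to 33.9%), 1 of 9 astrocyte genes (11.1%, 0.281% to 48.2%), 2 of 10 genes of the oligodendrocyte lineage (20%, 2.52% to 55.6%), 0 of 6 microglia genes (0% to 45.9%), and 1 of 3 endothelial genes (33.3%, 0.84% to 90.6%). All 5 intervals overlap. Protein-coding genes of like length gave 1.75, 1.23, 1.23, 0.519, and 0.678 genes, respectively, so that each class was within 1 gene of this number. The classes also differed in length, from a median of 11.7 kb in the neuron genes to 61.1 kb in the endothelial genes. Among the neuron genes, the 1 with a peak was of the general kind, and none of the 6 genes of inhibitory neurons had one. Genes of like length gave 1.1 for the 8 excitatory or general genes and 0.646 for the 6 inhibitory ones, so both counts were close to this background.

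No identity gene had a peak at a start in the promoter table or at either end of the gene. The 300-base promoter windows used here run from 250 bases before to 50 bases after an annotated start, and 33 of the 42 genes were matched to at least 1 of them. None of the 33 had a peak over the window (0%, exact interval up to 10.6%), and 1.97% of the protein-coding genes in the same table did. Within 3 kb of a start there was none either, against 3.91%. Both ends of a gene could be used for all 42, and 0 of 42 had a peak there, counting 3 kb to each side (exact interval up to 8.41%), against 5.30% of the protein-coding genes. Genes of like length gave 2.33 genes by this last rule. At these background shares, 33 or 42 genes are too few to show a shortage.

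Promoter sequences are shown for Pdgfra and Slc1a2, which among the identity genes that had a peak within 3 kb and are in the promoter table had the summits closest to their start, and the peaks' own sequences were not used here. Searched on both strands were CAGAC, the core of the Smad box, the GC-rich Smad motifs GGCGC and GGCCG, which can overlap each other, and the palindromic Smad box GTCTAGAC. Capitals mark the matches, and all sequences in this and the later paragraph are RefSeq sequence of GRCm38.p6, 5′ to 3′ on the strand of the gene. The Pdgfra window is chr5:75152001-75152300 on the plus strand, and that of Slc1a2 is chr2:102706188-102706487 on the plus strand.
Pdgfra: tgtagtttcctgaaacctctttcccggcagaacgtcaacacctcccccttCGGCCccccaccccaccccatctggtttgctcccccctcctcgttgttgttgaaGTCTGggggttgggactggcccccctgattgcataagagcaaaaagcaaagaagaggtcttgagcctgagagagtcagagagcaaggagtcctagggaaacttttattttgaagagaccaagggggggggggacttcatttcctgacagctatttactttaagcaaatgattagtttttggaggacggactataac
Slc1a2: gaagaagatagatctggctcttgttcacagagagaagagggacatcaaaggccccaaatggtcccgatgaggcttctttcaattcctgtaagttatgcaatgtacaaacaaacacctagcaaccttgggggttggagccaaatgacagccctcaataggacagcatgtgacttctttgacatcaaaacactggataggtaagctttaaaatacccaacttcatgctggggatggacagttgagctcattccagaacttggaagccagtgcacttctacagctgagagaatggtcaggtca

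The Pdgfra window held 1 CAGAC and 1 GGCCG, and the Slc1a2 window held none of the 4 motifs. Over the 38 promoter windows of the 33 identity genes, 47.4% held CAGAC, 36.8% GGCGC, 44.7% GGCCG, and none GTCTAGAC. Over all 21263 promoter windows of protein-coding genes the shares were 48.4%, 46.7%, 43.9%, and 0.226%, and over all 32851 windows in the table, which include those of genes of other kinds, they were 49.6%, 36.9%, 35.2%, and 0.213%. These short motifs are found in a large part of all promoters, and a match is a description of letters and not of a bound site. In the 371 promoter windows of protein-coding genes with a peak over them, 49.9% held CAGAC, 70.1% GGCGC, and 67.7% GGCCG. The GC content had a median of 62.7% in these and 56.3% in all windows of protein-coding genes, and its part in the motif shares was not tested. The median for the identity gene windows was 55.7%.

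The 37 identity genes without a peak differed widely in how far away the nearest peak was. Over all 42 genes the median distance was 81.8 kb, against 110 kb for all protein-coding genes, and 47.6% of the identity genes and 52.4% of the protein-coding genes lay over 100 kb from a peak. The nearest miss was Cx3cr1, the fractalkine receptor gene of microglia, 5.85 kb from a peak on chromosome 9 (120042292 to 120042832), where the pileup was 3. Cx3cr1 was also the gene closest to that peak. C1qa, a complement gene of microglia, lay 18.1 kb from a peak, and Aif1 and Tmem119 lay 60.2 kb and 71.3 kb away. P2ry12, the ADP receptor, was 102 kb from a peak. For Csf1r, the receptor that microglia need to survive, the distance was 626 kb.

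Among transcription factors of neurons, Neurod2 lay 11.5 kb from a peak with a pileup of 5 (chromosome 11, 98313481 to 98313883), which was inside another gene, Gm31317. Prox1, a marker of dentate gyrus granule cells, lay 13.8 kb from a peak with a pileup of 3 that was inside the neighboring gene Prox1os. By contrast, Neurod6 lay 188 kb, Neurod1 208 kb, Bcl11b 140 kb, and Tbr1 508 kb from a peak. The genes of inhibitory neurons had a median distance of 196 kb. Slc32a1, which encodes the vesicular GABA transporter, was 31.8 kb from a peak, Gad1 and Gad2, the genes of the GABA-synthesizing enzymes, were 91.2 kb and 339 kb away, and for the interneuron markers Sst, Vip, and Pvalb the distances were 103 kb, 290 kb, and 500 kb. Slc17a7, which encodes the vesicular glutamate transporter of hippocampal excitatory neurons, lay 64.3 kb from a peak.

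Among the genes of glia, Olig1 and Olig2, neighboring transcription factor genes of the oligodendrocyte lineage on chromosome 16, shared their nearest peak, from 91285433 to 91285666 with a pileup of 4. It lay 13.5 kb from Olig1, which was the gene closest to it, and 56.8 kb from Olig2. The 2 genes are thus not independent observations. Sox10 lay 56.0 kb from a peak, and the myelin genes ranged from 52.1 kb (Mag) through 72.4 kb (Mobp) and 199 kb (Cnp) to 739 kb (Mog), the largest distance among the 42. Of the astrocyte genes, Aldoc lay 12.6 kb from a peak that was inside Pigs. Gfap, the intermediate filament gene that rises in reactive astrocytes, lay 41.9 kb from a peak with a pileup of 2 inside Eftud2. Aldh1l1, Gja1, Aqp4, Sox9, and S100b were each 143 kb or more away, up to 270 kb for S100b. Cspg4, the second marker of oligodendrocyte precursors, was 362 kb from a peak. The endothelial genes Cldn5 and Pecam1 were 56.0 kb and 158 kb away.

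**Figure D3:**
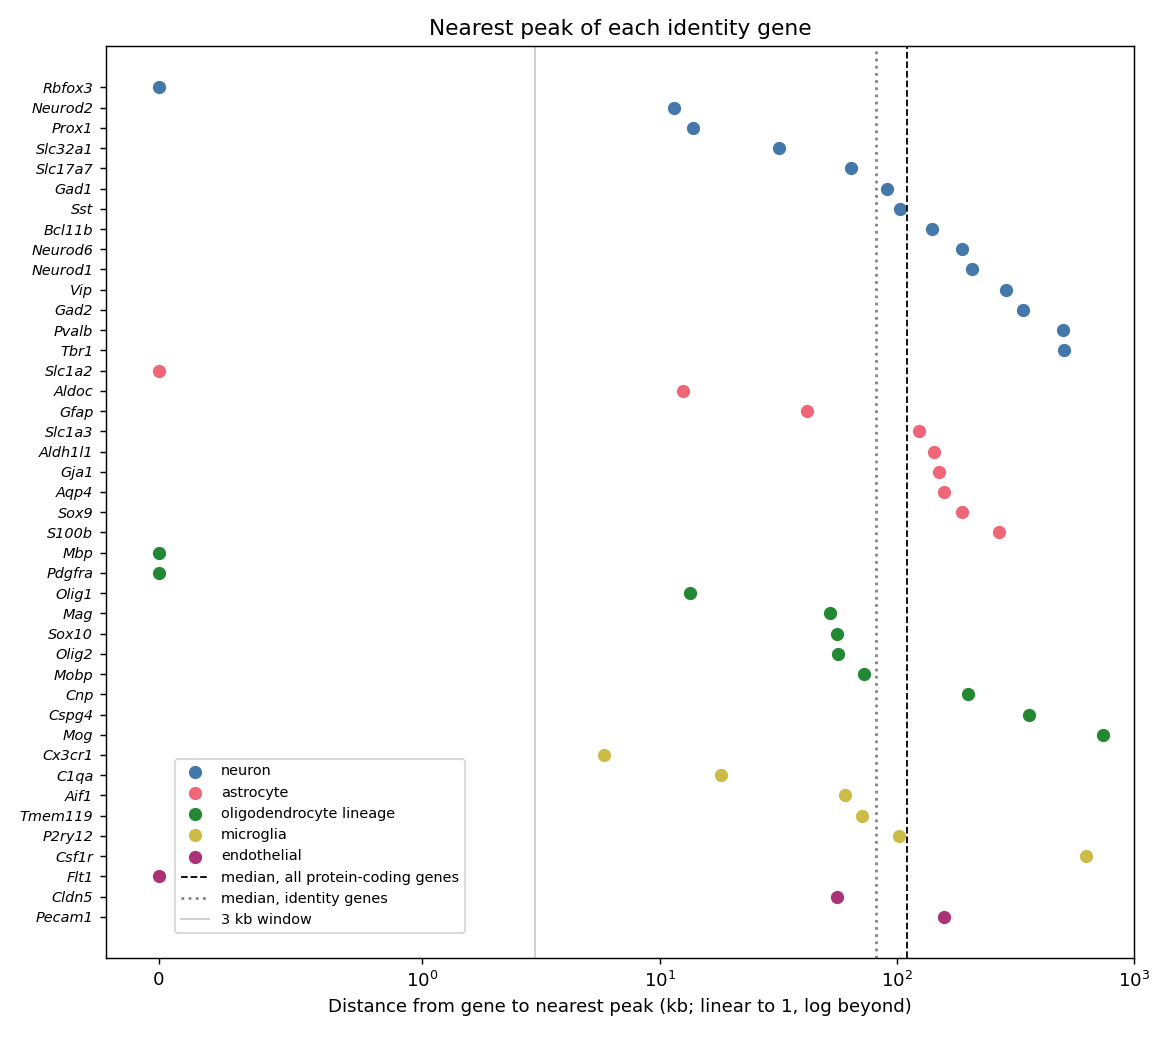
Each point is 1 identity gene, placed by the distance in kb from the gene to its nearest peak (x axis, linear to 1 kb and logarithmic beyond, where 0 is a peak touching the gene) and colored by cell class. The median is 81.8 kb for the identity genes (dotted) and 110 kb for all protein-coding genes (dashed), and every class has genes on both sides of the dashed line.

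Wider marker lists, which share no gene with the 42, gave a view of the same cell types with more genes. Of 203 markers of brain cell types, 35 (17.2%, exact interval 12.3% to 23.2%) had a peak, and genes of like length gave 30.2. Of 69 markers of tissues outside the brain (liver, striated muscle, photoreceptors, blood cells, pancreas, and testis), 5 (7.25%, exact interval 2.39% to 16.1%) had one, and genes of like length gave 5.46. The brain lists had a median gene length of 16.9 kb and the others one of 7.47 kb. The exact interval of each of the 15 lists contained its share at like length. By list, the excitatory neuron list had 6 of 18 genes with a peak (2.75 at like length) and the endothelial list 9 of 30 (5.59), followed by 6 of 28 for the oligodendrocyte lineage (4.53), 4 of 27 for microglia (3.30), 4 of 25 for astrocytes (3.92), 3 of 25 for inhibitory neurons (3.27), and 1 of 12 for general neuron genes (2.37). The mural list had 1 of 14 (1.75) and the fibroblast list 1 of 10 (1.18), and none of 14 ependymal and choroid plexus genes had one (1.52). Outside the brain, the blood cell list had 3 of 13 (0.88 at like length), the liver list 1 of 13 (1.13), and the striated muscle list 1 of 20 (1.9). The photoreceptor list had 0 of 12 (1.18), and the pancreas and testis list 0 of 11 (0.373).

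**Figure D4:**
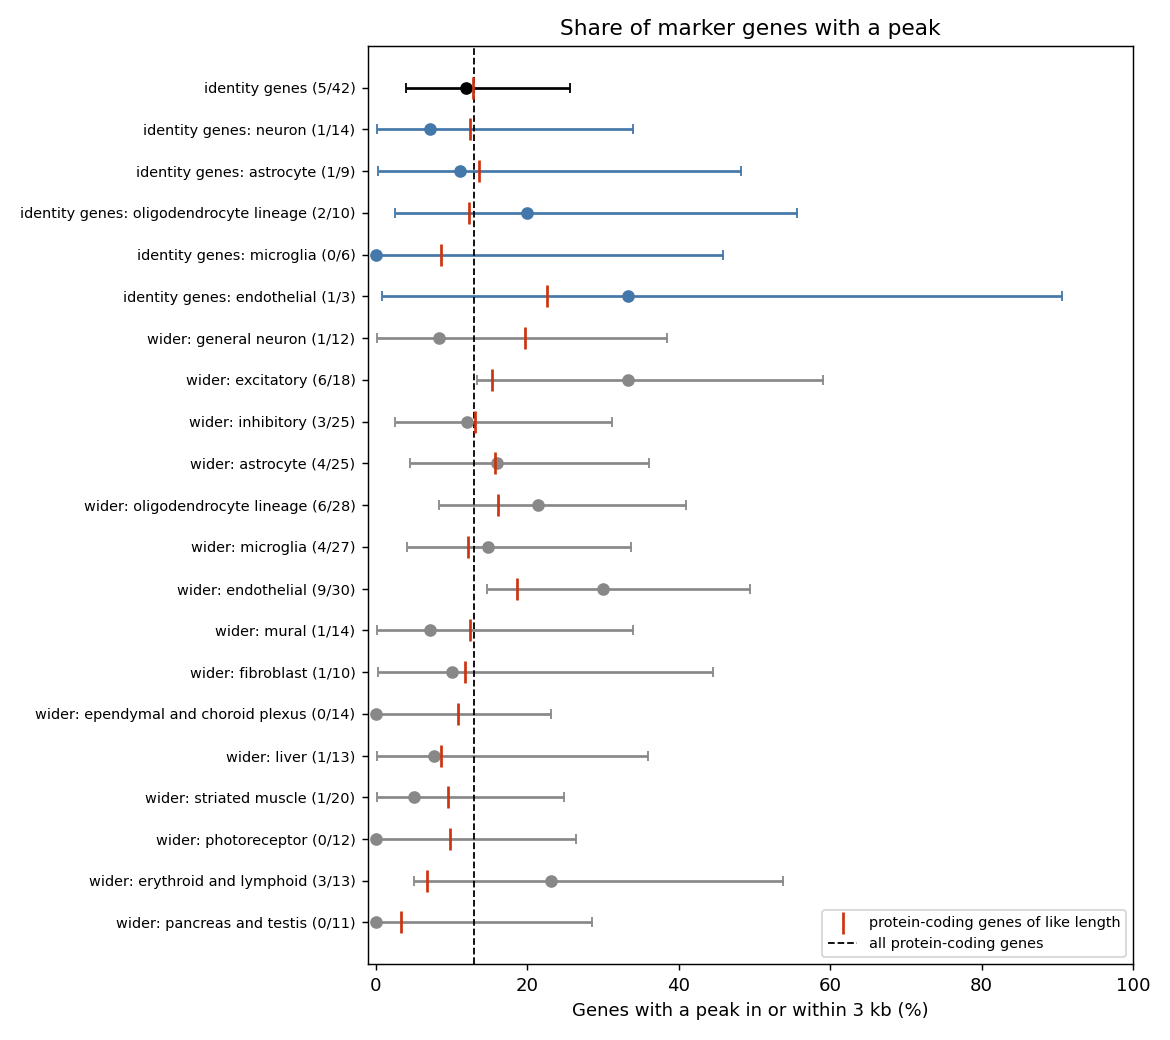
The percentage of genes with a peak (x axis) is shown for the 42 identity genes, their 5 cell classes, and the 15 wider marker lists (counts in brackets), where bars are 95% exact binomial intervals, red marks the share at like gene length, and the dashed line the 13% of all protein-coding genes. Each interval contains its red mark.

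Some peaks in the wider lists, which hold 272 genes, had a higher pileup than any of the 6 peaks at the 42 identity genes. A larger set can reach a higher maximum. Of all peaks in or within 3 kb of a protein-coding gene, 33.2% had a pileup of at least 4, and so did 3 of the 6. Fli1, an endothelial and hematopoietic transcription factor gene, had the highest, with a pileup of 19, a fold enrichment of 13.8, and 36 peaks of lower q-value in the list. It lay on chromosome 9 from 32515783 to 32516078, inside the gene and 27374 bp from its higher-coordinate end. Endothelial peaks followed at Nos3 and Cdh5, the genes of endothelial nitric oxide synthase and VE-cadherin, with a pileup of 6 each, and at Slco1a4 with 4. In the excitatory list, Zbtb20 had a peak with a pileup of 9 at 182 bp from its lower-coordinate end, which also touched 4932412D23Rik, Wfs1 had 6, and Grik4 had 5. Among astrocyte genes the transcription factor genes Nfia and Nfib had pileups of 5 and 4, and in the microglia list Ptprc, which encodes the leukocyte antigen CD45, and Cd68 had 5 each. In the oligodendrocyte lineage the highest was 3, at Ugt8a, Zfp488, and Trf.

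Peaks over the promoter window were found at 3 of the 194 wider markers in the promoter table, against the 1.97% given above. The 3 were Wfs1, a marker of CA1 pyramidal neurons, Cd68, which encodes a lysosomal protein of microglia and macrophages, and Itm2a, an endothelial membrane protein gene. Their promoters are shown because a peak lay over these windows, again with the matches to the 4 motifs in capitals. The windows are chr5:36988933-36989232 (Wfs1), chr11:69666121-69666420 (Cd68), and chrX:107403311-107403610 (Itm2a), all on the minus strand.
Wfs1: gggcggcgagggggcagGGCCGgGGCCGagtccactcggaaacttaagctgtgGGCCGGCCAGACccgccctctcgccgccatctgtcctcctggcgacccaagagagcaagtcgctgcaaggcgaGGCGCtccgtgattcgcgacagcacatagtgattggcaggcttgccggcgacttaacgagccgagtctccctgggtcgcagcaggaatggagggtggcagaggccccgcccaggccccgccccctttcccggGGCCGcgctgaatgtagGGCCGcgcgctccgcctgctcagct
Cd68: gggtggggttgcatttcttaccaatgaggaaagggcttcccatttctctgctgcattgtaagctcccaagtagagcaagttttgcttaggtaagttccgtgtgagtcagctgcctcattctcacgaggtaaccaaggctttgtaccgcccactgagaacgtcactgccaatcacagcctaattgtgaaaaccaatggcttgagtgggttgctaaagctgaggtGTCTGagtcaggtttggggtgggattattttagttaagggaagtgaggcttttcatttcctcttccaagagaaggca
Itm2a: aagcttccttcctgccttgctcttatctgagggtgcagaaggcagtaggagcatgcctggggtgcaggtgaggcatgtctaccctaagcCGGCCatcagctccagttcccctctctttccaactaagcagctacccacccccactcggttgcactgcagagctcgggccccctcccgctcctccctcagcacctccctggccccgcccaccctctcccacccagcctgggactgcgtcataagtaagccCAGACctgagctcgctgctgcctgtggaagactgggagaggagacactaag

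Counted from the first base shown, the peak covered bases 58 to 275 of the Wfs1 window, 79 to 300 of the Cd68 window, and 224 to 300 of the Itm2a window. The Wfs1 window had a GC content of 70.0% and the Wfs1 peak a q-value of 2.92e-05, with the summit 171 bp upstream of the start. The Cd68 window had a GC content of 47.7%, and the summit lay 77 bp downstream of the start. Cd68 lies within 3 kb of Eif4a1 at this peak, so the peak cannot be given to Cd68 alone. The Itm2a peak, with a pileup of 2 and a q-value of 0.0439, was the weakest of the 3. Within 3 kb of a start, 7 of the 194 wider markers had a peak, against 3.91% of the protein-coding genes in the table. They were these 3 and Fibcd1, Ugt8a, Nppa, and Klf1, the last 2 from the lists outside the brain.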

How the data were processed

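The authors sequenced paired ends of 150 bp. Uniquely mapped reads went into MACS2, and the peaks were called at a cutoff of 0.05. The submitters' processing notes name BWA, MACS2, HOMER, and mm10, the same assembly as GRCm38, without versions. Duplicate handling and the use of IgG as control in peak calling are not given in the sources used here. The deposited list gives each peak a score (not used), a fold enrichment (a ratio), and the −log10 of p and q. Read totals were not used here.

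Pileups were recovered from the deposited fold enrichment and −log10 p under a Poisson background and reproduced −log10 p to within 0.000152. Starts were counted from 1. Gene positions and promoters came from RefSeq (GRCm38.p6). No strand or start was taken from elsewhere. The share at like length is the sum, over a list, of the share with a peak among protein-coding genes of the same length class (10 classes). Clopper-Pearson intervals (95%) cover counting error only. No test was made. The members, classes, and 15 wider lists (272 genes) were chosen with earlier results of these data known. Every identity gene with a peak is named, and of each wider list up to 4 genes with the lowest q-values. Itm2a and Fibcd1 were named after their values were seen. The overlap counts and pileups were tested on simulated data. SciPy 1.17.1, pandas 2.3.3, and NumPy 2.4.6 were run under Python 3.11.15.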

Additional observations from a re-analysis of the deposited data

How the results depend on the processing

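No paired analysis was possible because each antibody had a single library and only 1 peak list was analysed. No library could be left out for the same reason. The 6 peaks at identity genes had only 2 to 4 overlapping fragments at the summit, which limits every count of them. With a q-value of at most 0.01, 0.001, or a pileup of at least 3, fewer peaks remain by construction: the identity genes with a peak fell from 5 to 3 (Pdgfra, Rbfox3, and Slc1a2), 2 (Pdgfra and Rbfox3), and 3 (the same as at 0.01), and the sum at like length from 5.41 to 2.67, 1.51, and 3.26. The peaks at identity genes were 3, 2, and 4 in place of 6, and their density 1.55, 1.03, and 2.06 per Mb in place of 3.09. In all 3 settings the oligodendrocyte lineage had 1 gene and the endothelial class 0, and the astrocytes had 0 at a q-value of at most 0.001. The wider brain lists had 18, 11, and 18 genes in place of 35 and the lists outside the brain 1, 1, and 3 in place of 5.

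Within 3 kb of either gene end, or of an annotated start, 0 identity genes and 0 peaks were left, with 0 in the neuron, astrocyte, oligodendrocyte lineage, and endothelial classes, where genes of like length gave 2.33 and 1.36. The brain lists then had 10 and 5 genes, and the lists outside the brain 2 near a start. Density was not computed for these 2 rules. A 10 kb window added Cx3cr1, which gave the microglia 1 gene, and raised the lists outside the brain to 8. They had 2 with a 1 kb window and 1 with the gene itself. Summits moved none of these values by over 1.5 times. The sum at like length was 5.24 with 20 length classes, 4.86 with the 200 genes nearest in length, and 5.44 with all protein-coding genes as reference, and 5 identity genes had a peak with no other protein-coding gene in the window. Leaving out Rbfox3, which was chosen after seeing the data, took the identity genes with a peak from 5 to 4, their peaks from 6 to 4, the sum at like length to 4.98, and the density to 2.64 per Mb, and the neuron class from 1 gene to 0.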
